A study of Saccharomyces cerevisiae with 24 samples.

Results

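GCN4 and the genes that control its translation were described in a set of 24 budding yeast (Saccharomyces cerevisiae) libraries. The 10 genes were chosen by name, out of 6369 in the table, for their known place in the pathway: GCN4 itself, PCL5, GCN1, GCN2, GCN20 and the 5 genes of eIF2B (GCN3, GCD7, GCD1, GCD2 and GCD6). They were chosen with earlier results of these data known. All 10 passed the filter on low counts. Cultures in log phase, harvested at an OD of 0.6 to 0.8, were of 3 genotypes: wild type, RPL22A deleted (ΔRPL22A) and RPL22B deleted (ΔRPL22B). RPL22A and RPL22B encode the large-subunit ribosomal protein Rpl22. All strains received cycloheximide, which stops ribosomes on the mRNA, before their extracts were run on sucrose gradients. For each strain, polyA RNA of the input, of monosomes, of low polysomes (light polysomes in the text) and of high polysomes (heavy polysomes) was sequenced in biological duplicate, which gives 12 groups of 2 libraries. The labels name no stress, no starvation, and neither the mating type nor the nutritional markers of the strains.

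Gcn4 is the transcription activator of the general amino acid control of yeast. Its mRNA carries short open reading frames ahead of the coding sequence, which hold back translation of Gcn4 in well-fed cells. Under amino acid starvation the kinase Gcn2, with Gcn1 and Gcn20 on the ribosome, phosphorylates eIF2, the phosphorylated eIF2 inhibits its exchange factor eIF2B, and scanning ribosomes then more often reach the Gcn4 start codon. Gcn4 in turn raises transcription of many amino acid biosynthesis genes and of PCL5, whose cyclin, with the kinase Pho85, marks the Gcn4 protein for degradation.

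The frames ahead of GCN4 are shown because the fraction results below concern the ribosome load of this mRNA. GCN4 (YEL009C) lies on the minus strand of chromosome V at 138918 to 139763 in build R64, with a coding sequence of 846 bases. In the 600 bases before its start codon, 4 ATG codons open a frame that ends ahead of GCN4, here read from the RefSeq R64 genome with the start and stop codons in capitals.
Upstream frame 1: ATGgcttgcTAA
Upstream frame 2: ATGtgtTAA
Upstream frame 3: ATGtacccgTAG
Upstream frame 4: ATGtttccgTAA
They lie at chrV:140113-140124, chrV:140048-140056, chrV:139928-139939 and chrV:139903-139914. Their first bases are 361, 293, 176 and 151 bases before the first base of the GCN4 start codon, and they hold 3, 2, 3 and 3 codons before the stop. The data count the mRNA found in each gradient fraction and do not record where ribosomes sat on it. Ribosomes on these frames and on the coding sequence were therefore not separated.

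The other genes lie elsewhere in the R64 genome, and none of the 10 coding sequences overlaps another annotated gene. PCL5 (YHR071W) is on chromosome VIII at 237004 to 237693, with a coding length of 690 bases. GCN2 (YDR283C) is on chromosome IV at 1025070 to 1030049 (4980 bases), GCN1 (YGL195W) on chromosome VII at 131525 to 139543 (8019 bases) and GCN20 (YFR009W) on chromosome VI at 162488 to 164746 (2259 bases). Of the eIF2B genes, GCN3 (YKR026C) is on chromosome XI at 488738 to 489655 (918 bases), GCD7 (YLR291C) on chromosome XII at 718317 to 719462 (1146 bases), GCD1 (YOR260W) on chromosome XV at 813984 to 815720 (1737 bases), GCD2 (YGR083C) on chromosome VII at 644860 to 646815 (1956 bases) and GCD6 (YDR211W) on chromosome IV at 884727 to 886865 (2139 bases). Over all 24 libraries they drew between 558 counts (GCN2) and 12054 counts (GCN4).

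Total counts per library ranged from 2435632 to 10947937, of which 62.5% to 97.1% fell on 7 rows at the ribosomal DNA, and 314212 to 1950344 counts remained for all other genes. RPL22B had 1329 counts over the 8 wild-type libraries, 6354 in ΔRPL22A and 0 in ΔRPL22B. RPL22A had 25, 3 and 40 counts in the same order, too few to check the ΔRPL22A label closely. The strains also differed in mating-type genes. The 5 a-specific genes summed to 58.1 to 226 CPM (counts scaled to a common library total) in the wild-type libraries and to 0.855 to 3.31 in both deletion strains, while the 4 α-specific genes summed to 0 to 4.24 and to 257 to 1164 CPM. MET17, a methionine biosynthesis gene, had 0 counts over the wild-type libraries, against 824 for ΔRPL22A and 788 for ΔRPL22B, and the lysine gene LYS2 had 955, 2 and 0. HIS3, a histidine gene, had 670, 2447 and 784. In each comparison with wild type, the deletion and these strain differences therefore cannot be told apart. ΔRPL22A and ΔRPL22B shared the α-type genes and the MET17 and LYS2 state and differed in HIS3 counts. HIS3 had counts in every strain, so a difference in marker state was not shown. These counts are sums over libraries of unequal depth. LEU2 and URA3 were not analysed here.

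GCN4 mRNA was higher in ΔRPL22A than in the other strains, in input and in most ribosome fractions. In wild-type input it stood at 63.5 and 69.9 CPM in the duplicates, in ΔRPL22A at 124 and 126, and in ΔRPL22B at 64 and 68.7. Both ΔRPL22A libraries lay above all 4 others, which overlapped. All CPM here are scaled by TMM and are shares of a library. A change in GCN4 mRNA per cell therefore cannot be told from an opposite change in the other mRNAs. Against ΔRPL22B, input GCN4 rose 1.88-fold (log2 0.91 ± 0.27 SE, adjusted p = 0.0486, edgeR quasi-likelihood test with Benjamini-Hochberg adjustment). Against wild type it was 1.87-fold higher and did not pass (log2 0.90 ± 0.28, adjusted p = 0.0548). These comparisons share the ΔRPL22A libraries. ΔRPL22B and wild type differed by −0.01 ± 0.27 in log2, with a 95% interval of −0.57 to 0.55.

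The input call stood at the threshold. Leaving out any single library of ΔRPL22A or ΔRPL22B input ended it, at log2 0.92 (adjusted p = 0.25) and 0.91 (0.0781) without ΔRPL22A replicate 1 or 2, and 0.86 (0.311) and 0.97 (0.195) without ΔRPL22B replicate 1 or 2. ΔRPL22A input replicate 1 was also 1 of the 4 libraries whose correlation with a library of another RNA pool came nearest to that with their own duplicate, here 0.947 against 0.960. In all 4 the duplicate remained the closer. Also in that set are replicate 2 of wild-type heavy polysomes, replicate 2 of ΔRPL22A light polysomes and replicate 1 of ΔRPL22B light polysomes. Without all 4, input GCN4 rose by 0.93 ± 0.25 in log2 against ΔRPL22B (adjusted p = 0.0168) and by 0.92 ± 0.25 against wild type (adjusted p = 0.0186).

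In monosomes, GCN4 stood at 94.3 and 70.7 CPM in wild type, 172 and 118 in ΔRPL22A, and 68.3 and 70.3 in ΔRPL22B. The ΔRPL22A libraries again lay above all others, and their duplicates were further apart than in input. GCN4 rose by 1.07 ± 0.28 in log2 against ΔRPL22B (adjusted p = 0.0292, edgeR). Against wild type it was higher by 0.81 ± 0.28 and did not pass (adjusted p = 0.0877). The call against ΔRPL22B was lost without ΔRPL22A monosome replicate 1 (log2 0.77, adjusted p = 0.279) and without either ΔRPL22B monosome library, at 1.05 (0.251) without replicate 1 and 1.09 (0.16) without replicate 2.

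In heavy polysomes, GCN4 stood at 19.2 and 31.4 CPM in wild type, 42.3 and 55.5 in ΔRPL22A, and 21.6 and 22.6 in ΔRPL22B. Once more both ΔRPL22A libraries lay above the other 4. The rise against ΔRPL22B was 1.14 ± 0.29 in log2 (adjusted p = 0.0197, edgeR), and the difference from wild type, 0.94 ± 0.29, did not pass (adjusted p = 0.067). Without 1 of its 4 libraries the call against ΔRPL22B was lost in each case. The values were 1.32 (adjusted p = 0.0635) and 0.94 (0.132) without ΔRPL22A replicate 1 or 2, and 1.10 (0.182) and 1.18 (0.126) without ΔRPL22B replicate 1 or 2. Without wild-type replicate 2, which is 1 of the 4 libraries above, the difference from wild type passed at 1.35 (adjusted p = 0.0396).

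Light polysomes stood apart from this order. GCN4 was at 45.5 and 45.5 CPM in wild type, 78.7 and 69.7 in ΔRPL22A, and 84.4 and 60.6 in ΔRPL22B, so that the deletion strains overlapped and wild type lay below both. ΔRPL22A and ΔRPL22B differed by 0.03 ± 0.27 in log2 (adjusted p = 0.964), and neither differed from wild type past the threshold (0.71 ± 0.28, adjusted p = 0.157, and 0.67 ± 0.28, adjusted p = 0.952). The highest ΔRPL22B value came from replicate 1. Without that library the ΔRPL22A minus ΔRPL22B difference was 0.31 and did not pass. The test of the difference between light polysome and input in the contrast of ΔRPL22A with ΔRPL22B gave −0.88 ± 0.39 (unadjusted p = 0.0316, adjusted p = 0.907).

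Over the mean of the 4 pools, GCN4 was 1.79-fold higher in ΔRPL22A than in wild type (log2 0.84 ± 0.14, adjusted p = 5.77e-05, edgeR) and 1.73-fold higher than in ΔRPL22B (0.79 ± 0.14, adjusted p = 0.000117). Both calls held without each of the 16 libraries involved, with log2 values of 0.77 to 0.95 and 0.72 to 0.86. Such a mean is a broad test, since 23.3% and 25.4% of all 5380 tested genes passed it, 12.3% and 12.7% of them higher in ΔRPL22A. GCN4 stood at the 94.6th and 94.3rd percentile of all tested genes in these contrasts. ΔRPL22B and wild type differed by 0.05 ± 0.14, where 0.595% of genes passed. If the pools of a replicate came from 1 culture, these p-values are too small. The estimated correlation within cultures was −0.022, and a fit with a culture block gave 0.85 ± 0.13 and 0.78 ± 0.13.

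**Figure D1:**
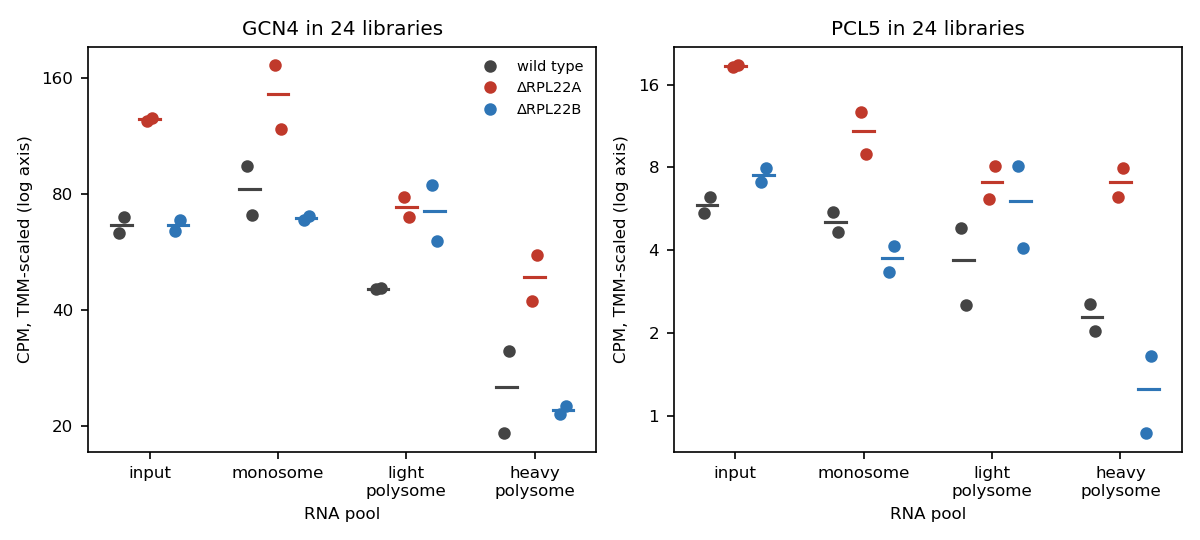
TMM-scaled CPM (log axis) of GCN4 and PCL5 in each of the 24 libraries, by RNA pool; points are libraries and bars the mean of the 2 duplicates. ΔRPL22A input libraries stand at 124 and 126 CPM for GCN4 and at 18.6 and 18.8 for PCL5, above the other strains, while in light polysomes the deletion strains overlap for both genes.

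PCL5, the cyclin gene that is itself a target of Gcn4, showed the largest input differences of the 10 genes between ΔRPL22A and the other strains. Its input level was 5.47 and 6.22 CPM in wild type, 18.6 and 18.8 in ΔRPL22A, and 7.06 and 7.99 in ΔRPL22B. The ΔRPL22A libraries stood far above the others, and those of wild type lay just below those of ΔRPL22B. PCL5 rose 3.20-fold against wild type (log2 1.68 ± 0.30, adjusted p = 0.000681, edgeR) and 2.47-fold against ΔRPL22B (1.31 ± 0.29, adjusted p = 0.00645). The call against wild type held without each library, at 1.59 to 1.85. The call against ΔRPL22B was lost without ΔRPL22A replicate 1 (1.32, adjusted p = 0.0673) and without ΔRPL22B replicate 1 (1.23, 0.14) or 2 (1.4, 0.0659).

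PCL5 also rose in heavy polysomes of ΔRPL22A against both strains, and in its monosomes against ΔRPL22B. In heavy polysomes it stood at 2.54 and 2.04 CPM in wild type, 6.23 and 7.96 in ΔRPL22A, and 0.862 and 1.65 in ΔRPL22B, the last from 3 and 8 counts. Each strain had its own range there. Heavy polysome PCL5 rose by 1.60 ± 0.41 in log2 against wild type (adjusted p = 0.0237) and by 2.40 ± 0.44 against ΔRPL22B (adjusted p = 0.00164). The first call was lost without any 1 of its libraries, at 1.79 and 1.45 without ΔRPL22A replicate 1 or 2 and 1.76 and 1.45 without wild-type replicate 1 or 2, and the second without ΔRPL22B replicate 1 (2.07, adjusted p = 0.0548). In monosomes, at 5.49 and 4.65 CPM in wild type, 12.7 and 8.93 in ΔRPL22A and 3.33 and 4.14 in ΔRPL22B, the rise was 1.57 ± 0.39 against ΔRPL22B (adjusted p = 0.0199), and the difference from wild type, 1.07 ± 0.34, did not pass (adjusted p = 0.0583). The call was lost without ΔRPL22A replicate 1 (1.28, adjusted p = 0.204) and without ΔRPL22B replicate 1 (1.41, 0.265) or 2 (1.73, 0.0981).

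As for GCN4, PCL5 in light polysomes of ΔRPL22A, at 6.11 and 8.09 CPM, overlapped with that of ΔRPL22B, at 8.06 and 4.06 CPM. The difference was 0.19 ± 0.32 in log2 (adjusted p = 0.773), and the wild-type libraries stood at 4.83 and 2.53 CPM. Over the mean of the 4 pools PCL5 was 2.46-fold and 2.58-fold higher in ΔRPL22A than in wild type and ΔRPL22B (adjusted p = 3.25e-06 and 2.16e-06), and both calls held without each library.

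GCN1, GCN2 and GCN20 encode the sensor side of the pathway. None of them changed between strains within a single pool past the threshold. GCN2, the eIF2 kinase gene, was the least abundant of the 10 genes. Per kilobase of coding sequence its wild-type input level was 0.887 ± 0.306 CPM (SD, n = 2), against 78.8 ± 5.36 for GCN4. In input it stood at 3.34 and 5.50 CPM in wild type, 2.59 and 3.74 in ΔRPL22A and 4.91 and 4.36 in ΔRPL22B, and its 24 libraries held 2 to 60 counts each. Its input differences were −0.47 ± 0.34 against wild type and −0.56 ± 0.32 against ΔRPL22B in log2 and did not pass. GCN1, whose very large product binds ribosomes and Gcn2, stood at 39.9 and 38.0 CPM in wild-type input, 24.5 and 40.5 in ΔRPL22A and 38.1 and 41.1 in ΔRPL22B, and the strains overlapped apart from ΔRPL22A replicate 1, which lay below the rest.

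GCN20, the ABC protein that acts with Gcn1, stood at 14.6 and 12.3 CPM in wild-type input, 15.4 and 20.1 in ΔRPL22A and 12.9 and 16.3 in ΔRPL22B. Its strain difference passed only over the mean of the 4 pools, at 0.52 ± 0.16 in log2 against wild type (adjusted p = 0.0156) and 0.64 ± 0.15 against ΔRPL22B (adjusted p = 0.00262). The first call was lost without ΔRPL22A light polysome replicate 1 (0.36, adjusted p = 0.0929), and the second held without each library. GCN1 and GCN2 did not pass over the mean of the pools either, at −0.02 ± 0.16 and −0.01 ± 0.23 against wild type and 0.24 ± 0.16 and −0.05 ± 0.22 against ΔRPL22B.

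GCN3 encodes the regulatory alpha subunit, GCD7 and GCD2 the beta and delta subunits that with it sense phosphorylated eIF2, and GCD1 and GCD6 the gamma and epsilon subunits of the catalytic part. In input, no eIF2B gene passed in any strain comparison. GCN3 stood at 8.20 and 8.97 CPM in wild-type input, 13.0 and 9.61 in ΔRPL22A and 9.12 and 10.2 in ΔRPL22B. GCD6 stood at 10.9 and 12.3, 8.70 and 13.0, and 12.3 and 13.0 CPM in the same order, and its groups overlapped. GCD7 stood at 10.5 and 9.4 CPM in wild type, 15.9 and 12.8 in ΔRPL22A and 12.2 and 12.7 in ΔRPL22B, and GCD1 at 20.9 and 18.5, 20.9 and 25.5, and 17.5 and 20.04 CPM. GCD2 pointed the other way, at 10.5 and 12.6 CPM in wild type, 4.94 and 9.39 in ΔRPL22A and 13.0 and 10.7 in ΔRPL22B, and its difference of −0.74 ± 0.31 against ΔRPL22B did not pass.

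Only GCN3 passed within a pool, in light polysomes. It stood there at 18.6 and 21.8 CPM in ΔRPL22A, 10.1 and 11.3 in ΔRPL22B and 10.6 and 12.6 in wild type, and rose by 0.91 ± 0.26 in log2 against ΔRPL22B (adjusted p = 0.0279). That call was lost without ΔRPL22A light polysome replicate 1 (1.04, adjusted p = 0.0622) or 2 (0.80, 0.147) and without ΔRPL22B replicate 1 (0.84, 0.0943). The 4 libraries named above include 2 of these, and without all 4 the value was 0.74 (adjusted p = 0.132).

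Over the mean of the 4 pools GCN3 rose in ΔRPL22A by 0.53 ± 0.14 against wild type (adjusted p = 0.0054) and 0.55 ± 0.14 against ΔRPL22B (adjusted p = 0.0043), and both calls held without each library. GCD1 rose by 0.42 ± 0.15 in both (adjusted p = 0.0365 and 0.0335) and GCD7 by 0.38 ± 0.14 against ΔRPL22B (adjusted p = 0.0444). Of the fits without 1 library, GCD1 passed in 6 of 16 and 8 of 16, and GCD7 in 4 of 16. Its lowest value was 0.31, without ΔRPL22A light polysome replicate 2, and those of GCD1 were 0.35 and 0.36, without wild-type light polysome replicate 2 and without ΔRPL22B heavy polysome replicate 1. GCD2 and GCD6 did not pass (−0.04 ± 0.18 and 0.05 ± 0.16 against wild type).

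**Figure D2:**
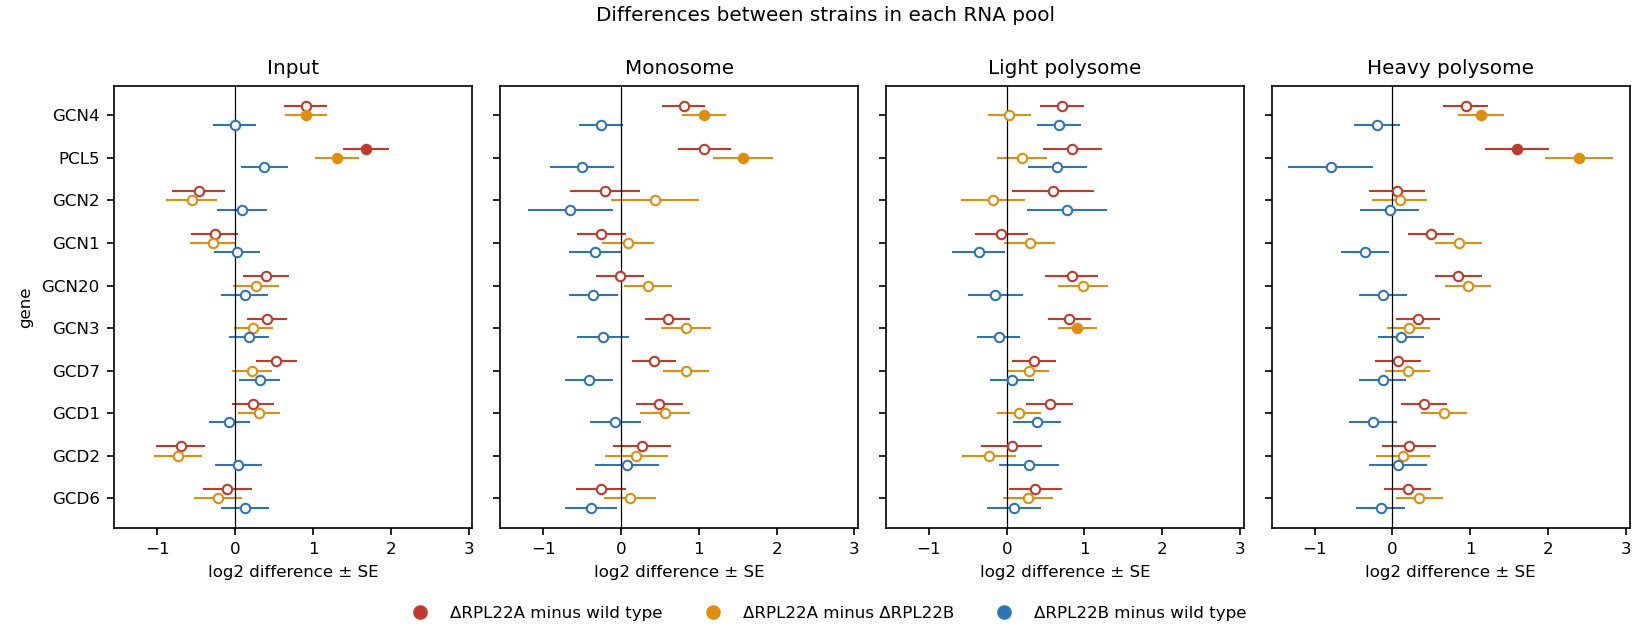
Log2 differences between strains for the 10 genes in each RNA pool, with the standard error of the fit to all 24 libraries; filled points passed an adjusted p of 0.05. GCN4 and PCL5 lie furthest to the right in the ΔRPL22A contrasts of input, monosome and heavy polysome, and no ΔRPL22B minus wild type point is filled.

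Counted over the 10 genes, the input comparison of ΔRPL22A with wild type called 1 gene higher and 0 lower, where 4.65% of all tested genes were called (2.16% higher and 2.49% lower). Against ΔRPL22B it called 2 and 0, with 5.26% of all genes called (2.32% higher and 2.94% lower). The counts against ΔRPL22B were 2 in monosomes, 1 in light polysomes and 2 in heavy polysomes, where 3.1%, 7.19% and 5.37% of all genes passed. Against wild type they were 0, 0 and 1, where 5.48%, 5.39% and 3.29% passed. ΔRPL22B against wild type called 0 of 10 in each pool, where 0.335%, 0.353%, 0.353% and 0.316% of all genes passed. The median of the 9 genes other than GCN4 was 0.21 in log2 for input of ΔRPL22A against ΔRPL22B, from −0.74 for GCD2 to 1.31 for PCL5, and the median of all tested genes was −0.03.

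Set against the summed counts of the other control genes within a library, where no scaling enters, GCN4 was also highest in ΔRPL22A in input. There GCN4 had 0.510 and 0.564 counts per count of the 9 other genes in wild type, 0.994 and 0.820 in ΔRPL22A, and 0.503 and 0.504 in ΔRPL22B. Per count of the 5 eIF2B genes, the values were 1.04 and 1.13, 1.95 and 1.79, and 0.998 and 1.03. Both ΔRPL22A libraries stood above the other 4 by either ratio. Per count of PCL5 alone, GCN4 was instead lowest in ΔRPL22A, at 6.67 and 6.69. It stood at 11.6 and 11.2 in wild type and 9.06 and 8.6 in ΔRPL22B. Pairs of libraries cannot pass a permutation test, whose smallest two-sided exact p is 0.333 for 2 against 2, and these ratios carry no test.

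In monosomes the ratio to the 9 others stood at 0.811 and 0.657 in wild type, 1.37 and 0.965 in ΔRPL22A and 0.785 and 0.742 in ΔRPL22B, above input without overlap in wild type and ΔRPL22B. It was lowest in heavy polysomes, at 0.111 and 0.224, 0.201 and 0.245, and 0.181 and 0.146. There the strains overlapped, unlike in input. The sum of the 9 others includes GCN20 and GCD6, which rose from input to heavy polysomes in all strains. A change of the ratio across pools therefore reflects these genes as well as GCN4. In light polysomes the ratio was highest in ΔRPL22B, at 1.07 and 0.696. It stood at 0.702 and 0.658 in ΔRPL22A and 0.552 and 0.621 in wild type, and the deletion strains overlapped.

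**Figure D3:**
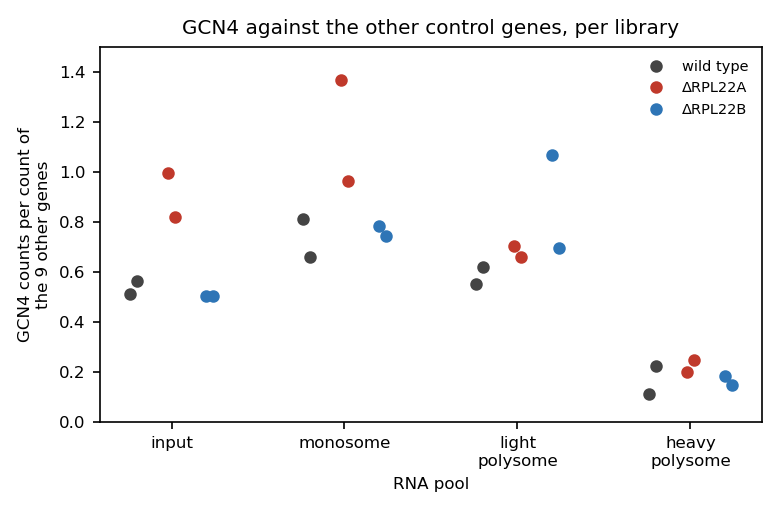
GCN4 counts per count of the 9 other control genes in each of the 24 libraries (linear axis from 0), by RNA pool and strain. In heavy polysomes all 6 libraries lie between 0.111 and 0.245, below every library of the other pools.

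GCN4 mRNA was depleted from heavy polysomes in all 3 strains. Relative to input it fell by 1.39 ± 0.29 in log2 in wild type (2.63-fold lower, adjusted p = 0.00196, edgeR), by 1.36 ± 0.28 in ΔRPL22A (2.56-fold lower, adjusted p = 0.00168) and by 1.58 ± 0.29 in ΔRPL22B (3-fold lower, adjusted p = 0.000311). The heavy polysome libraries of each strain, given above, lay below its input libraries without overlap. In this comparison 10.3%, 16.8% and 16.4% of all genes passed in wild type, ΔRPL22A and ΔRPL22B, and 6.43%, 5.22% and 4.28% of all tested genes stood at or below GCN4. The call was lost in wild type without heavy polysome replicate 1 (−1.09, adjusted p = 0.116) and in ΔRPL22A without heavy polysome replicate 1 (−1.18, adjusted p = 0.0521).

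Relative to monosomes the depletion was as large. Heavy polysome GCN4 fell by 1.71 ± 0.29, 1.57 ± 0.28 and 1.65 ± 0.29 in wild type, ΔRPL22A and ΔRPL22B (adjusted p = 0.000201, 0.000306 and 0.000582), where 22.3%, 25.7% and 15% of all genes passed. These calls held without each single library. From input to monosomes GCN4 did not pass in any strain (0.32 ± 0.28, 0.22 ± 0.27 and 0.06 ± 0.28). From input to light polysomes it passed only in ΔRPL22A (−0.75 ± 0.27, adjusted p = 0.0444), a call lost without any 1 of the 4 libraries, at −0.83 and −0.66 without light polysome replicate 1 or 2 and −0.75 and −0.74 without input replicate 1 or 2.

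Long mRNAs have room for more ribosomes, so GCN4 was also set beside genes of like coding length. Among the 1384 tested genes of 500 to 1000 bases, the median heavy polysome to monosome ratio was −0.39, −0.58 and −0.27 in log2 in wild type, ΔRPL22A and ΔRPL22B, and 11.6%, 12.3% and 8.45% of them stood below GCN4. For the heavy polysome to input ratio the medians were −0.06, −0.34 and 0.03, with 8.02%, 7.95% and 5.42% of the genes below GCN4. GCN3, with a coding length of 918 bases, kept its input level in heavy polysomes more closely, at 0.02 ± 0.28, −0.05 ± 0.26 and −0.03 ± 0.27. Across genes, length and the heavy polysome to monosome ratio had a Spearman correlation of 0.437, 0.619 and 0.377, a description over genes that are not independent replicates.

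**Figure D4:**
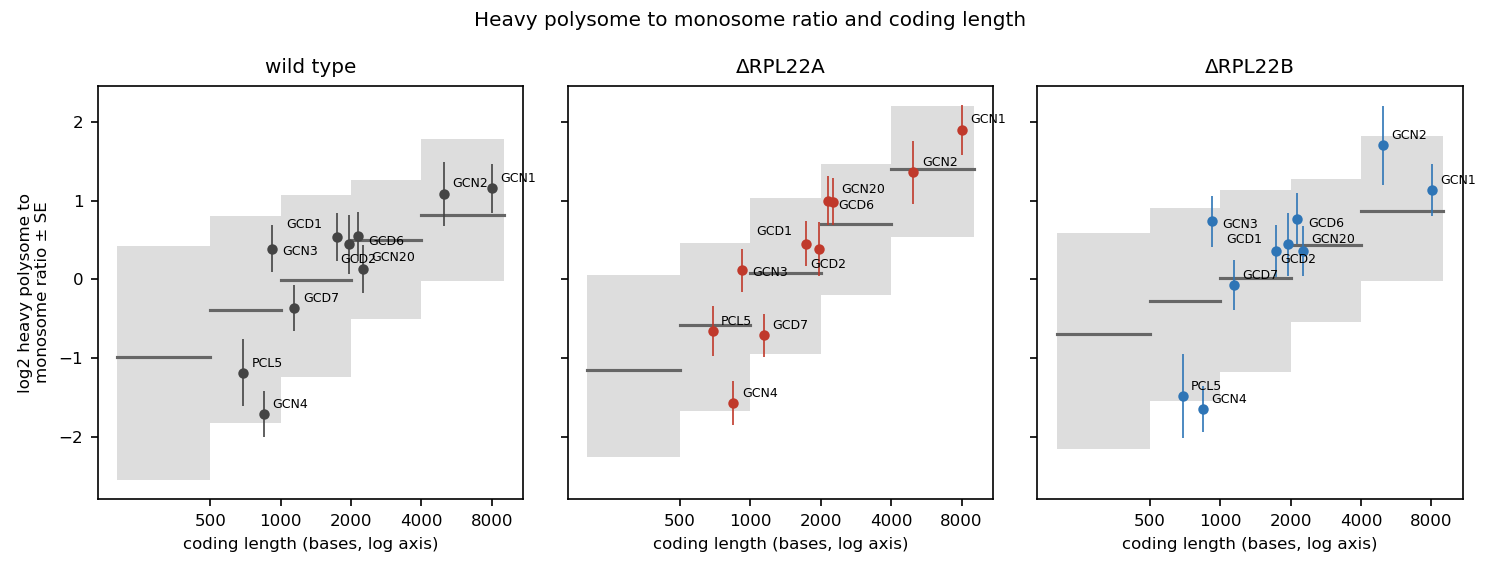
Log2 heavy polysome to monosome ratio (with standard error) against coding length (log axis) for the 10 genes in each strain; grey boxes span the 10th to 90th percentile of all tested genes in 5 length classes and the grey lines are their medians. GCN4 lies below the median of its length class in every strain, at −1.71, −1.57 and −1.65.

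PCL5, at 690 bases, was also low in heavy polysomes. Relative to input it fell by 1.34 ± 0.41, 1.42 ± 0.30 and 2.51 ± 0.43 in wild type, ΔRPL22A and ΔRPL22B (adjusted p = 0.0324, 0.00212 and 0.000137). The wild-type call was lost without any 1 of its libraries, at −1.50 and −1.19 without heavy polysome replicate 1 or 2 and −1.44 and −1.27 without input replicate 1 or 2, and the ΔRPL22A call without heavy polysome replicate 1 (−1.24, adjusted p = 0.067). The ΔRPL22B call held without each library. Of the 10 genes, GCN4 and PCL5 passed the threshold as lower in heavy polysomes than in input. In wild type, ΔRPL22A and ΔRPL22B, the GCD1 ratios were −0.56 ± 0.29, −0.38 ± 0.27 and −0.74 ± 0.29 in log2. Those of GCD2 were −0.63 ± 0.34, 0.29 ± 0.32 and −0.59 ± 0.33, and those of GCD7 0.03 ± 0.29, −0.42 ± 0.27 and −0.41 ± 0.28. None of these passed.

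GCN20 and GCD6 were higher in heavy polysomes than in input in all strains. GCN20 rose from the input levels given above to 37.8 and 25.5 CPM in wild type, 55.1 and 58.9 in ΔRPL22A and 22.1 and 35.6 in ΔRPL22B, with no overlap. The log2 ratios were 1.23 ± 0.31, 1.68 ± 0.30 and 0.98 ± 0.30 (adjusted p = 0.00935, 0.000468 and 0.0245). GCD6, which encodes the catalytic subunit, rose to 35.9 and 24.7, 37.8 and 31.2, and 25.3 and 29.0 CPM, with ratios of 1.38 ± 0.32, 1.68 ± 0.31 and 1.10 ± 0.31 (adjusted p = 0.00468, 0.000694 and 0.0139). In wild type both genes also rose from input to monosomes, GCN20 by 1.10 ± 0.31 (adjusted p = 0.00758) and GCD6 by 0.84 ± 0.32 (adjusted p = 0.0454). The first of these was lost without wild-type input replicate 2 (0.98, adjusted p = 0.0715), and the second without any 1 of its libraries, at 0.69 to 1.0. From monosomes to heavy polysomes they passed in ΔRPL22A (0.99 ± 0.30 and 1.0 ± 0.31, adjusted p = 0.0158 and 0.0188), and not in wild type (0.13 ± 0.30 and 0.55 ± 0.31) or ΔRPL22B (0.36 ± 0.31 and 0.77 ± 0.33). For the heavy polysome to input ratio of both genes the ΔRPL22A calls held without each library. The lowest values of GCN20 without 1 library were 0.92 in wild type, without heavy polysome replicate 1, and 0.59 in ΔRPL22B, without heavy polysome replicate 2. Those of GCD6 were 1.09 and 1.0, without the same libraries, and all 4 did not pass.

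GCN1, the longest of the 10 genes at 8019 bases, was low in light polysomes. Light polysomes held 14.3 and 13.9 CPM in wild type, 14.6 and 12.1 in ΔRPL22A and 8.67 and 13.4 in ΔRPL22B, below each strain's input. Relative to input it fell by 1.47 ± 0.33, 1.27 ± 0.31 and 1.85 ± 0.32 in log2 (adjusted p = 0.000905, 0.00405 and 7.67e-05), where 34.4%, 25.7% and 33% of all genes passed. The ΔRPL22A call was lost without light polysome replicate 1 (−1.41, adjusted p = 0.0502) or input replicate 2 (−0.86, 0.122), and the others held without each library. From input to monosomes it fell by 0.88 ± 0.31 in wild type (adjusted p = 0.0305) and by 1.24 ± 0.32 in ΔRPL22B (adjusted p = 0.00473), and the ΔRPL22A value of −0.87 ± 0.31 did not pass (adjusted p = 0.0625). The ΔRPL22B call held without each library. The wild-type call was lost without monosome replicate 2 (−0.52, adjusted p = 0.294) and without input replicate 1 (−0.85, 0.113) or 2 (−0.93, 0.0701), and was −1.58 without monosome replicate 1.

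In heavy polysomes GCN1 stood at 53.1 and 41.3 CPM in wild type, 54.0 and 79.6 in ΔRPL22A and 31.9 and 41.6 in ΔRPL22B. It rose from input only in ΔRPL22A, by 1.04 ± 0.30 (adjusted p = 0.0182), a call lost without heavy polysome replicate 2 (0.74, adjusted p = 0.191) or input replicate 1 (0.72, 0.247). The ratio in wild type was 0.27 ± 0.30 and in ΔRPL22B −0.10 ± 0.30. Among the 206 tested genes over 4000 bases, the median ratio was 0.13, 0.95 and −0.10 in wild type, ΔRPL22A and ΔRPL22B. GCN1 lay between the 10th and 90th percentile of this length class in each strain. For GCN1, the test of the difference between the deletion strains gave 1.14 ± 0.42 (unadjusted p = 0.0119, adjusted p = 0.323). This was the lowest p of any strain by fraction difference among the 10 genes. From monosomes to heavy polysomes GCN1 rose by 1.16 ± 0.31, 1.90 ± 0.32 and 1.14 ± 0.33 (adjusted p = 0.00979, 0.000174 and 0.02). The ΔRPL22A call held without each library, and the others were lost in some fits, with lowest values of 0.79 without wild-type monosome replicate 2 and 0.93 without ΔRPL22B heavy polysome replicate 2.

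GCN2, also a long gene, stood higher in heavy polysome than in monosome libraries. Among the 206 tested genes over 4000 bases, the median of this ratio was 0.82, 1.41 and 0.87 in wild type, ΔRPL22A and ΔRPL22B. Both GCN1 and GCN2 lay between the 10th and 90th percentile of this length class in each strain. GCN2 rose by 1.36 ± 0.40 in ΔRPL22A (adjusted p = 0.0138) and 1.70 ± 0.51 in ΔRPL22B (adjusted p = 0.0227). Its ratio in wild type was 1.09 ± 0.41 and did not pass (adjusted p = 0.0528). The ΔRPL22A and ΔRPL22B calls were lost in 3 and 2 of the 4 fits without 1 library. Their lowest values were 1.31 without ΔRPL22A monosome replicate 2 and 1.07 without ΔRPL22B monosome replicate 1. GCD1 fell from input to monosomes in all strains, by 1.10 ± 0.29, 0.84 ± 0.28 and 1.10 ± 0.31 (adjusted p = 0.00523, 0.0466 and 0.00844), where 30.8%, 13.8% and 29.5% of all genes passed. Its smallest change in wild type without 1 library was −0.83, without monosome replicate 2. In ΔRPL22A it was −0.70, without input replicate 2, and in ΔRPL22B −1.0, without input replicate 2. These 3 values did not pass.

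**Figure D5:**
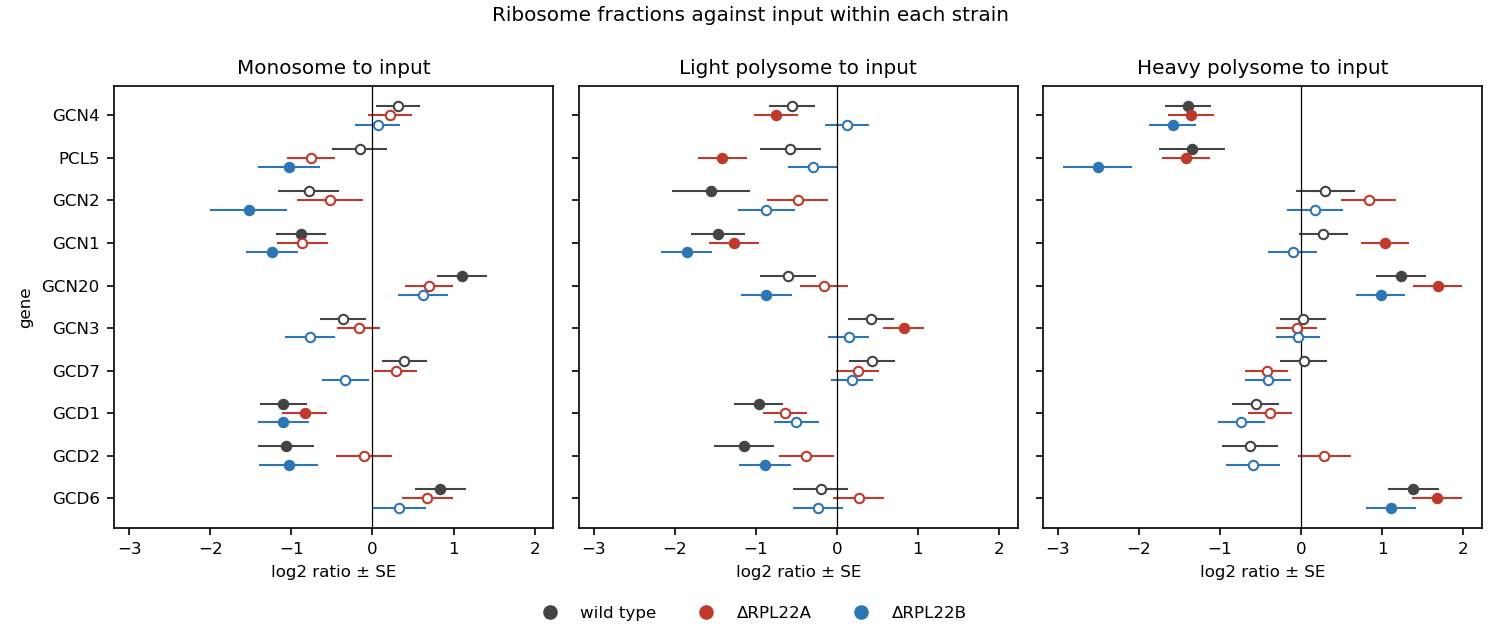
Log2 ratios of monosome, light polysome and heavy polysome to input for the 10 genes in each strain, with standard errors; filled points passed an adjusted p of 0.05. In heavy polysomes GCN4 and PCL5 lie left of 0 and GCN20 and GCD6 right of 0 in all 3 strains.

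Whether the strains differ in these fraction ratios was tested as an interaction. None of the 10 genes passed in any of the 12 interaction tests in edgeR, and 3 of the 120 values had an unadjusted p under 0.05. For the heavy polysome to input ratio of GCN4, ΔRPL22A minus wild type was 0.04 ± 0.39 in log2, with a 95% interval of −0.77 to 0.84. ΔRPL22A minus ΔRPL22B was 0.23 ± 0.40, with an interval of −0.58 to 1.04. Across all genes 0% passed in these tests, and 0.0558%, or 3 genes, in the light polysome to input ratio of ΔRPL22A against wild type. On simulated counts, the heavy polysome to input test of ΔRPL22A against ΔRPL22B recovered 5% of 2-fold and 67% of 4-fold changes. The lack of calls therefore does not show that the ratios are alike.

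Ordered by level over the 12 groups, GCN4 was highest in ΔRPL22A monosomes (145 ± 38.6 CPM, SD, n = 2) and ΔRPL22A input (125 ± 1.4), which do not differ beyond their spread. Wild-type monosomes followed at 82.5 ± 16.7 CPM. ΔRPL22A and ΔRPL22B light polysomes, ΔRPL22B monosomes and both other inputs lay between 66.3 and 74.2 CPM, within each other's spread. ΔRPL22A heavy polysomes (48.9 ± 9.35), wild-type light polysomes (45.5 and 45.5), wild-type heavy polysomes (25.3 ± 8.59) and ΔRPL22B heavy polysomes (22.1 ± 0.756) stood lowest.

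Likeness to this pattern was measured as Pearson's r of log2 CPM over the 12 group means, among the 1329 other genes whose mean level reached 10 CPM. The 5 most alike were PHO86 (0.868), which encodes an endoplasmic reticulum protein needed for phosphate transporter export, the sterol oxidase gene ERG25 (0.862), the reticulon gene RTN1 (0.841), LEU9 (0.840), of leucine biosynthesis, and PRY2 (0.816), which encodes a sterol-binding secreted protein. Among the 9 other control genes r was 0.884 for PCL5, 0.699 for GCD7, and −0.532 for GCD6, the lowest. The PCL5 value was higher than for any of the 1329 genes. PCL5 itself averaged only 10.9, 4.22 and 4.64 CPM over the pools of ΔRPL22A, wild type and ΔRPL22B. Other genes with a mean below 10 CPM were not compared, so its rank among genes of like level is not known. All points share the same libraries and scaling, and these values are descriptions without a test.

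Genes downstream of Gcn4 were higher in ΔRPL22A. Their list was chosen with earlier results of these data known, so the shares below are not an independent test. Of 43 tested amino acid biosynthesis genes under Gcn4, 17 rose and 1 fell in input against wild type (39.5% higher, against 2.16% of all genes), and 18 rose and 0 fell against ΔRPL22B (41.9%, against 2.32% of all genes). The median difference was 0.82 in log2 in both, against −0.02 and −0.03 for all genes. The gene that fell was LYS9, of lysine biosynthesis, which also fell in ΔRPL22B against wild type and was singled out after its values were seen. Its log2 differences were −1.29 and −1.17, and LYS2, of the same pathway, is at or near 0 counts in both deletion strains. LYS9 was also called lower in ΔRPL22A than in ΔRPL22B in heavy polysomes and over the mean of the 4 pools. A link between LYS9 and LYS2 was not tested. In ΔRPL22B against wild type 0 of the 43 rose, where 0.149% of all genes rose, with a median of −0.07. The counts of 17 and 18 were smaller without some libraries. Against wild type the count was 8 without ΔRPL22A input replicate 1, 9 without wild-type replicate 1 and 8 without wild-type replicate 2. Against ΔRPL22B it was 6 or 9 when ΔRPL22B replicate 1 or 2 was left out, and 7 when ΔRPL22A replicate 1 was.

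Among the genes of this list with the lowest adjusted p were HIS5, of histidine synthesis, and ARG7 and ARG4, of arginine synthesis. HIS5 rose by 1.77 ± 0.26 against wild type and 1.88 ± 0.26 against ΔRPL22B (adjusted p = 5.1e-05 and 4.29e-05). ARG7 rose by 2.41 ± 0.32 and 1.94 ± 0.29 and ARG4 by 2.29 ± 0.29 and 1.75 ± 0.28 (adjusted p = 4.63e-06 to 0.000227). All 3 also rose in ΔRPL22A against both other strains in monosomes, light and heavy polysomes.

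In light polysomes, where GCN4 and PCL5 did not differ between the deletion strains past the threshold, 26 of the 43 genes rose and 0 fell in ΔRPL22A against ΔRPL22B, where 4.2% of all genes rose. Against wild type 25 rose and 1 fell, where 3.42% of all genes rose, and 15 or 13 rose without wild-type light polysome replicate 1 or 2. When only the compared groups were fitted, 0 of the 43 passed against ΔRPL22B in light polysomes. In monosomes 15 and 13 rose against wild type and ΔRPL22B, where 2.73% and 1.51% of all genes rose. In heavy polysomes 9 and 14 rose, where 1.39% and 2.43% of all genes rose. LYS9 fell in monosomes against wild type and in heavy polysomes against both strains. Leaving out any 1 library lowered the monosome counts to 3 to 7 and 2 to 9 and the heavy polysome counts to 3 to 6 and 3 to 9, lowest without wild-type monosome replicate 1, ΔRPL22B monosome replicate 1, ΔRPL22A heavy polysome replicate 2 and ΔRPL22B heavy polysome replicate 1. The part of the different nutritional markers in these counts was not tested.

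Of 16 genes for eIF2, eIF3 and factors that act with them, 0 passed in input against wild type and 1 rose against ΔRPL22B, where 2.16% and 2.32% of all genes rose. This was TRM6 (0.90 ± 0.26, adjusted p = 0.0413), also known as GCD10, a subunit of the methyltransferase of initiator tRNA. It also rose against ΔRPL22B in monosomes (1.5 ± 0.35, adjusted p = 0.0134) and heavy polysomes (0.99 ± 0.29, adjusted p = 0.0422). The list medians in input were 0.39 in both comparisons. In monosomes TIF11, the gene of eIF1A, rose by 1.60 ± 0.39 against wild type (adjusted p = 0.0141), and in light polysomes TIF35, an eIF3 subunit, by 0.89 ± 0.25 and 0.85 ± 0.24 against wild type and ΔRPL22B (adjusted p = 0.0299 and 0.0308). The calls of TRM6, TIF11 and TIF35 were not followed in fits without single libraries. Over the mean of the 4 pools 6 and 10 of the 16 rose and 0 fell, where 12.3% and 12.7% of all genes rose.

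Of 15 regulators and partners of Gcn2 and Gcn4, 0 passed in input in any comparison in edgeR, and the median differences lay between −0.02 and 0.11. GIR2, whose protein binds Gcn1, stood at 0.68 ± 0.25 in input against ΔRPL22B (adjusted p = 0.0977) and rose in monosomes by 1.28 ± 0.32 (adjusted p = 0.0237). CDC53, of the ubiquitin ligase that acts on Gcn4, stood at −0.94 ± 0.36, TOR2 at −0.84 ± 0.32 and the acetyltransferase gene GCN5 at 0.57 ± 0.37, none past the threshold. Over the mean of the 4 pools 2 of the 15 rose and 1 fell against wild type, and 1 rose (GIR2) and 1 fell (CDC53) against ΔRPL22B. Of all genes 12.3% and 12.7% rose in these comparisons. The monosome call of GIR2 was not followed in fits without single libraries.

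The motif TGACTC, the core of the Gcn4 binding site, was searched on both strands of the 500 bases before each annotated coding start in R64. It was found for 0 of the 10 control genes, for 34 of the 43 amino acid genes (79.1%) and for 759 of 6000 protein-coding genes (12.7%). A match is a description of these letters in this window, and the lack of one says nothing further about the factor.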

How the data were processed

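The table of whole-number read counts per gene was used as deposited. Per the labels, polyA RNA was fractionated on sucrose gradients and sequenced by Frac-Seq, and per the series design reads sharing a barcode were joined over 2 lanes. RSEM 1.2.18, cutadapt 1.4, SAMtools 0.1.19 and the build sacCer3 are listed, without roles, per the submitters' processing notes. The sources read here do not say which tool made the counts or how reads matching several genes were treated. Each column was assigned by its label, with 0 left unassigned. Of 6369 genes, 5908 matched the R64 reference table, which gave coordinates and coding lengths.

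edgeR 4.0.16 (R 4.3.3) fitted a mean for each of the 12 groups to all 24 libraries after filterByExpr (minimum count 10, minimum total 15; 5380 genes) and TMM scaling, with 12 residual and 16.1 prior degrees of freedom. The 39 contrasts used the quasi-likelihood F-test, adjusted by Benjamini-Hochberg over all tested genes at 0.05. Standard errors are the absolute log2 difference divided by the square root of F. The spread is pooled over all duplicates. The p-values measure differences between these cultures. Duplicates differed by more than sampling noise (chi-square per degree of freedom 1.83 to 34.3).

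The members and lists, and the set of 4 libraries left out together, were chosen with earlier results of these data known. Named genes were the 10 members, up to 4 genes of each other list with the lowest adjusted p in ΔRPL22A against ΔRPL22B input, the 5 genes most like GCN4, and the deleted and marker genes; 1 gene that this rule names is not reported here. On counts simulated from the fit, the ΔRPL22A against ΔRPL22B input test recovered 39% of 2-fold and 99% of 4-fold changes, with 8 false calls. The test of the heavy polysome to input ratio between these strains recovered 5% and 67%, with 5 false calls.

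Alternatives were RLE scaling, ribosomal DNA rows left out, no filter, a replicate block, only the compared groups fitted, DESeq2 1.42.0, limma 3.58.1 with a culture block, the 4 libraries left out, and each library left out in turn, where the lone duplicate is assumed to vary like other groups.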

Additional observations from a re-analysis of the deposited data

How the results depend on the processing

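Of 1376 values under alternatives, 1122 kept their direction and side of the threshold, 182 lost a call, 13 gained one, 31 turned sign and 28 counts moved by over 1.5 times. The cause of these changes was not tested. Single genes other than the members were not followed under the alternatives. GCN4 in ΔRPL22A minus wild type input passed at 0.96 with RLE scaling, 0.98 with ribosomal DNA rows left out, 0.92 without the 4 libraries nearest to another pool, 0.88 with only the compared groups fitted and 0.96 with DESeq2 (adjusted p = 0.0373, 0.0322, 0.0186, 0.011 and 0.0145). With the replicate block, ΔRPL22A minus ΔRPL22B input was 0.91 and did not pass (adjusted p = 0.0562), and 274 genes passed against 283. No label says that a replicate number marks a shared culture, and the data did not show such pairing: deviations of same-numbered libraries of a strain correlated at −0.25 to 0.21, over 0.1 in 3 of 18 pairs. Without the ribosomal DNA rows the median of all genes moved by −0.10 in monosome minus input of ΔRPL22A.

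GCN4 values near 0 turned sign. Without the 4 libraries these were ΔRPL22B minus wild type in heavy polysomes (0.21) and in the heavy polysome to input ratio (0.21), and light polysome minus input in ΔRPL22B (−0.14). The ΔRPL22A minus ΔRPL22B light polysome value was −0.027 with only the compared groups fitted. The ΔRPL22A minus wild type heavy polysome to input ratio was −0.015 with RLE, −0.026 with only the compared groups and −0.018 with DESeq2.

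Without 1 library each, GCN4 in input ranged from 0.86 to 0.97 for ΔRPL22A minus ΔRPL22B and −0.075 to 0.047 for ΔRPL22B minus wild type. Heavy polysome minus input ranged from −1.80 to −1.09 in wild type and −1.56 to −1.18 in ΔRPL22A. Turned signs lay within −0.17 to 0.31 (ΔRPL22A minus ΔRPL22B, light polysome), −0.50 to 0.21 (ΔRPL22B minus wild type, heavy polysome), −0.026 to 0.15 (ΔRPL22B minus wild type, mean of pools), −0.093 to 0.46 (monosome minus input, ΔRPL22A) and −0.14 to 0.35 (light polysome minus input, ΔRPL22B). For the strain differences in ratios they lay within −0.40 to 0.15 and −0.15 to 0.40 (monosome to input, ΔRPL22A against wild type and ΔRPL22B), −0.27 to 0.44 and −0.50 to 0.21 (heavy polysome to input, ΔRPL22A and ΔRPL22B against wild type), and −0.17 to 0.54, −0.24 to 0.47 and −0.18 to 0.37 (heavy polysome to monosome, ΔRPL22A against wild type, ΔRPL22B against wild type, ΔRPL22A against ΔRPL22B).

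The count of amino acid genes higher in ΔRPL22A input fell from 17 to as few as 8 against wild type and from 18 to as few as 6 against ΔRPL22B without 1 library. In heavy polysomes it was 9 against wild type, with 2 when only the compared groups were fitted and 17 with DESeq2, and 14 against ΔRPL22B, with 24 and 23 without the 4 libraries and with only the compared groups fitted. In monosomes it was 13 against ΔRPL22B and 20 without the 4 libraries. Calls of all genes in ΔRPL22A minus ΔRPL22B input numbered 283, 255 to 713 under other settings and 38 to 490 without 1 library. For light polysomes the count of 387 was 1 with only the compared groups fitted. The lowest counts in a library were 2 for GCN2 and 3 for PCL5.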
